A study of Mus musculus with 27 samples.

Results

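The 10 genes described here encode apolipoproteins and the transfer protein that loads lipid onto Apob. They are Apoa1, Apoa2, Apoa4, Apoa5, Apob, Apoc1, Apoc3, Apoe, Apoh and Mttp, chosen by gene symbol, and they make up 10 of the 21850 genes in the deposited table. All 10 were measured in the 27 libraries used and all 10 passed the filter on low counts in every comparison. The study asked whether mouse hepatocytes keep their identity and function when grown as organoids, and what happens to them when portal cells are added.

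Hepatocytes release lipid into blood as very low-density lipoprotein (VLDL). In the endoplasmic reticulum, microsomal triglyceride transfer protein (Mttp) loads lipid onto Apob, the large protein that stays with the particle for life. The exchangeable apolipoproteins then decide its fate: Apoc3 and Apoc1 slow its clearance, Apoa5 speeds the breakdown of its triglyceride, and Apoe is the ligand by which receptors take up remnants. Apoa1 and Apoa2 are the main proteins of high-density lipoprotein (HDL), and Apoa4 travels on chylomicrons and HDL. Apoh, also called beta-2-glycoprotein I, is a plasma protein that binds negatively charged phospholipid.

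Apoa1, Apoc3, Apoa4 and Apoa5 lie next to each other within 43340 bases of chromosome 9 (GRCm39, GENCODE vM39). Apoa1 occupies chr9:46139878-46142212 on the plus strand, and Apoc3 follows 314 bases further on, at chr9:46142527-46146934 on the minus strand. Apoa4 lies 5059 bases beyond Apoc3, at chr9:46151994-46154757, and Apoa5 lies 25173 bases beyond Apoa4, at chr9:46179931-46183217, both on the plus strand. Apoc1 (chr7:19422540-19427328) and Apoe (chr7:19430034-19434947) are neighbours on the minus strand of chromosome 7, 2705 bases apart. Apoa2, Apob, Apoh and Mttp are alone on chr1:171049125-171053948, chr12:8027648-8066835, chr11:108233964-108305232 and chr3:137795612-137850729.

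The sequences just upstream of Apoa1, Apoa4 and Apoa5, 3 genes of 1 cluster on chromosome 9, are shown. Apoa4 rose in HepOrgs against fresh hepatocytes, while Apoa1 and Apoa5 had lower fitted values. Apoc3, the other gene of the cluster, also fell and its sequence is not shown. Each run is read 5′ to 3′ on the plus strand of GRCm39, starts 250 bases before the start of the gene's canonical transcript and stops before the first annotated exon of that gene. Capitals mark matches to 4 short motifs that were searched on both strands: the nuclear receptor motif AGGTCA, the HNF4 motif CAAAGT, the HNF1 motif GTTAAT and the TATA box TATAAA.
Apoa1, chr9:46139628-46139877: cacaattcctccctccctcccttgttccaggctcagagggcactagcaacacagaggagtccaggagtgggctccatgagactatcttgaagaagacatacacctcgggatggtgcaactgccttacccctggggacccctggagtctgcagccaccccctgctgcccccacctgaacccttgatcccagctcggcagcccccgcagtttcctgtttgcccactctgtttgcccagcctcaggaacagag
Apoa4, chr9:46151744-46151993: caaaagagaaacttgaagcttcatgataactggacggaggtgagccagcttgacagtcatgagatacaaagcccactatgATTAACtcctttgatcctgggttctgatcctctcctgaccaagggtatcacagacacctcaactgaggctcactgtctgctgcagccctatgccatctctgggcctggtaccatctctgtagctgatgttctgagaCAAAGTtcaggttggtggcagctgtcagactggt
Apoa5, chr9:46179738-46179930: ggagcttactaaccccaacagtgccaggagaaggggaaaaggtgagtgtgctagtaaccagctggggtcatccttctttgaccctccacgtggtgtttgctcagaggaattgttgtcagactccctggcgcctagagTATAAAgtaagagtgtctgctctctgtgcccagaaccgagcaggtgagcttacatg
None of the 4 motifs occurred in the Apoa1 run. The Apoa4 run held CAAAGT at bases 34 to 29 before the start and, on the other strand, GTTAAT at bases 170 to 165. The Apoa5 run held TATAAA at bases 113 to 108 before its canonical start. Over windows of 250 bases before 21770 protein-coding genes, AGGTCA was found in 13.1%, CAAAGT in 13.4%, GTTAAT in 6.28% and TATAAA in 11.9%. Among the 10 genes these motifs were found in the windows of 3, 3, 1 and 4 genes. A match is a run of letters and was not shown to be bound.

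RNA was sequenced from 9 conditions with 3 libraries each, all from C57BL/6 mice. Freshly isolated hepatocytes were the reference. HepOrgs, hepatocyte organoids grown in Matrigel at passage 2, were kept either in the expansion medium HM-Wnt or in minimal medium (MM) for 7 or 14 days. MM contains WNT conditioned medium and a ROCK inhibitor but lacks the growth factors EGF, HGF, FGF7 and FGF10, as well as RSPO1, gastrin, nicotinamide, CHIR and A83-01. Periportal assembloids were made in MM from 10 HepOrgs, 1000 cholangiocytes and either 250 (homeostasis) or 2500 (fibrosis-like) portal mesenchymal cells, sorted as PDGFRα and SCA1 positive, and were kept for 7 or 18 days. The labels give WT as the genotype, except that the third library of fresh hepatocytes is titled WT and carries a Mdr2 heterozygous genotype label. Nothing in the labels says whether the 3 libraries of a condition came from separate mice or cultures, so the p-values measure the spread between libraries, which may be technical. Time is written below in weeks as the labels give it, 1, 2 and 2.5 weeks.

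Library totals ran from 30289364 to 65348596 counts, with a median of 43727965. The second homeostasis library at 1 week stood apart: 8465 genes had a count in it, against 14016 to 16018 in the other 26 libraries. Its summed level of 6 cholangiocyte markers was 4338 TPM (deposited counts scaled for gene length and library total) and that of 9 mesenchyme markers 4562, while Apob and Mttp had 3 and 9 counts. Hepatocyte markers (8 genes, among them Alb, Ttr and Hnf4a) were all detected in each of the 27 libraries. In a bulk library, fewer hepatocytes and less RNA per hepatocyte cannot be told apart.

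The 10 genes together took 6.75% to 7.78% of all counts in fresh hepatocytes (7.29% ± 0.518, SD, n = 3). In HM-Wnt HepOrgs the share was 3.21% to 4.33% at 1 week and 2.58% to 3.23% at 2 weeks. In MM HepOrgs it was 2.10% to 4.60% and 2.65% to 3.44%. None of the 12 HepOrg libraries reached the lowest fresh library, and the ranges of the media overlapped. Apoe took the largest share of the 10 in each of the 27 libraries. As reads per kilobase of canonical transcript and library total (RPKM), the only scale on which levels are compared between genes here, fresh hepatocytes held most of Apoa2 (25614, 15813 and 26464 in the 3 libraries), then Apoe (13813, 14655 and 14421) and Apoa1 (10417, 11242 and 12616). Apob was lowest on that scale, at 40.6, 33.0 and 34.6.

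**Figure D1:**
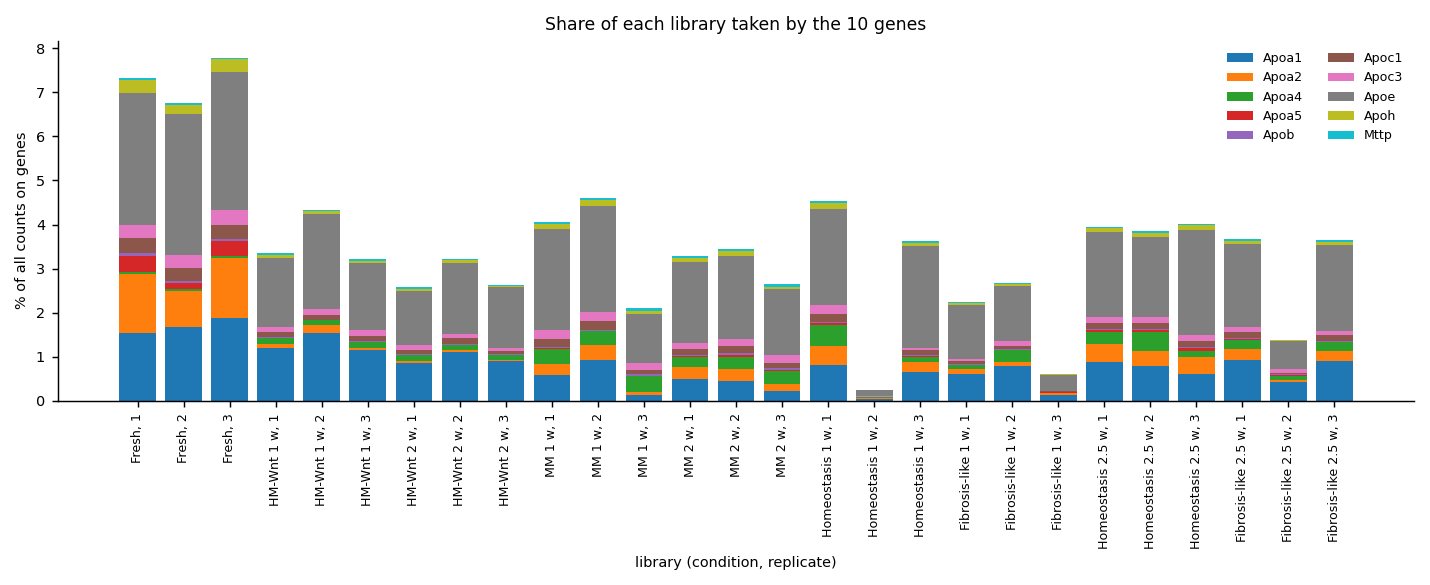
Percentage of all counts that fell on each of the 10 genes, stacked, in each of the 27 libraries. The bars of fresh hepatocytes reach 6.75% to 7.78% and stand above all others, and the second homeostasis library at 1 week reaches 0.25%.

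Against fresh hepatocytes, most of the 10 genes were lower in HepOrgs and Apoa4 was higher. In each of the 4 comparisons (HM-Wnt or MM, 1 or 2 weeks) 9 genes passed the test, 8 of them lower and 1, Apoa4, higher. The background was wide: of 13405 genes tested with edgeR's quasi-likelihood test at an adjusted p of 0.05, 49.7% were called in HM-Wnt at 1 week, 51.8% in HM-Wnt at 2 weeks, 42.8% in MM at 1 week and 39.7% in MM at 2 weeks. Lower calls made up 24.8%, 25.7%, 21.3% and 20.0% of all genes, and higher calls 24.9%, 26.1%, 21.5% and 19.7%. The median log2 fold change of the 10 genes was -1.59, -1.99, -1.34 and -1.51 in the same order, beside 0.02, 0.03, 0.00 and -0.01 over all genes tested. The 4 comparisons share their 3 fresh libraries and are not independent of each other. On the TPM scale the median of all genes sat 0.37, 0.64, 0.46 and 0.41 (log2) higher than on the scale of the main test, and the split of calls there was 43.0% higher against 13.2% lower, 60.4% against 11.1%, 46.4% against 9.42% and 39.5% against 9.30%. There 7, 7, 5 and 7 of the 10 genes were called lower, and Apoa4 remained the 1 called higher. Of the 8 hepatocyte markers 3, 6, 4 and 5 were lower and 0, 0, 0 and 1 higher, and on the TPM scale 3, 2, 1 and 4 were lower and 1, 1, 2 and 2 higher. Directions below are relative to the main test unless TPM is named.

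**Figure D2:**
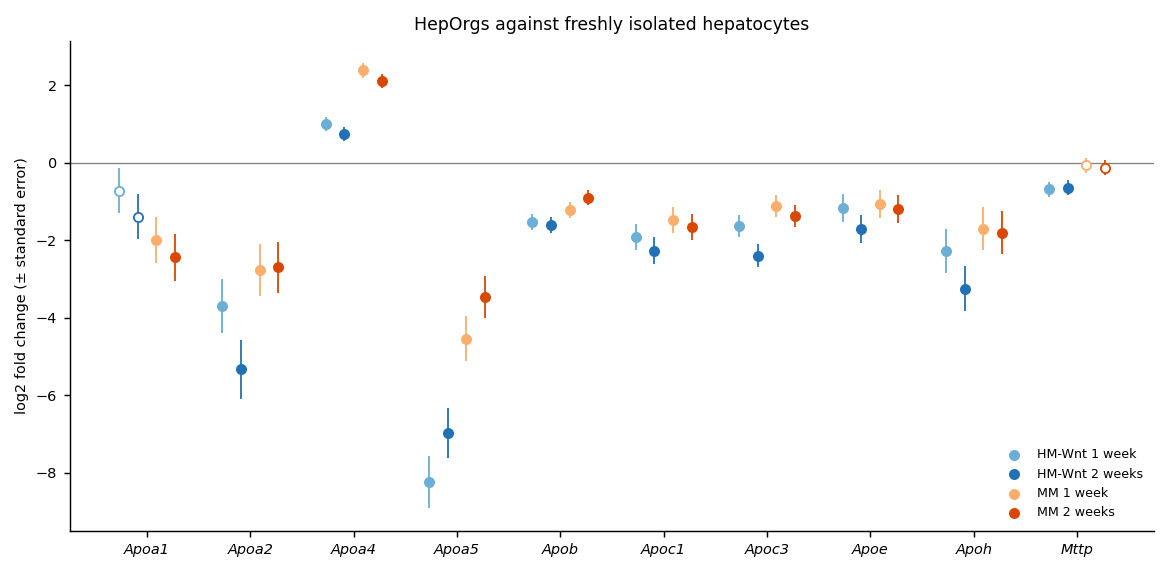
Log2 fold change of each gene against fresh hepatocytes with its standard error, for HM-Wnt and MM HepOrgs at 1 and 2 weeks; filled points have an adjusted p under 0.05. Apoa4 lies above 0 in all 4 conditions, Apoa5 lies lowest in all 4, and Mttp is the open point near 0 in MM.

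Apoa1, the structural protein of HDL, fell in MM, and in HM-Wnt at 2 weeks its call depended on the test. Its TPM was 54217, 55554 and 62314 in fresh hepatocytes. In HM-Wnt it was 47768, 55863 and 44540 at 1 week and 34769, 43752 and 36685 at 2 weeks. In MM it was 21358, 36128 and 4812 at 1 week and 19194, 16690 and 8288 at 2 weeks. The 1-week HM-Wnt libraries overlapped the fresh ones, and the third MM library at 1 week was far below the other two. The log2 fold change against fresh cells was -0.72 ± 0.58, adjusted p = 0.314 in HM-Wnt at 1 week and -1.39 ± 0.58, adjusted p = 0.0605 at 2 weeks, neither of which passed. At 2 weeks it did pass with the replicate number as a block (-1.46, adjusted p = 0.0273), with DESeq2 (-1.40, adjusted p = 0.0208) and with only these groups fitted (-1.38, adjusted p = 0.00524). In MM Apoa1 fell, with -1.99 ± 0.59, adjusted p = 0.0162 at 1 week and -2.44 ± 0.60, adjusted p = 0.00598 at 2 weeks. The 1-week call was lost when only these 2 groups were fitted (-1.95, adjusted p = 0.0804).

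Apoa2, which accompanies Apoa1 on HDL, fell much further in HM-Wnt. Fresh libraries held 66267, 38841 and 64976 TPM. HM-Wnt libraries held 5334, 9346 and 2963 TPM at 1 week and 2819, 3123 and 1233 at 2 weeks. MM libraries held 13826, 17858 and 3975 TPM at 1 week and 14559, 13780 and 8042 at 2 weeks, so that every HepOrg library lay below every fresh one. Apoa2 was 13.0-fold and 40.4-fold lower in HM-Wnt (log2 fold change -3.71 ± 0.69, adjusted p = 0.000693 and -5.34 ± 0.75, adjusted p = 6.75e-05). In MM it was 6.81-fold and 6.49-fold lower (-2.77 ± 0.66, adjusted p = 0.00474 and -2.70 ± 0.66, adjusted p = 0.00571). The Apoa1 to Apoa2 ratio of counts, which no scaling touches, was 1.16 to 2.04 in fresh cells, 17.6 to 42.3 in HM-Wnt at 2 weeks and 1.47 to 1.88 in MM at 2 weeks. Exons of Tomm40l, on the other strand, share 20.4% of the exon bases of Apoa2, and the libraries hold no strand to tell such reads apart.

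Apoa4 was the only gene of the 10 that rose against fresh hepatocytes. Its TPM was 1009, 1130 and 1196 in fresh cells. HM-Wnt libraries held 3443, 2771 and 3531 TPM at 1 week and 3601, 3118 and 3206 at 2 weeks. MM libraries held 8689, 8272 and 9887 TPM at 1 week and 5540, 7361 and 7714 at 2 weeks. The 3 sets of libraries were ordered without overlap, fresh cells lowest, HM-Wnt in the middle and MM highest. The rise was 2.01-fold at 1 week and 1.68-fold at 2 weeks in HM-Wnt (log2 fold change 1.00 ± 0.18, adjusted p = 0.000525 and 0.75 ± 0.18, adjusted p = 0.00350). In MM it was 5.23-fold and 4.31-fold (2.39 ± 0.19, adjusted p = 1.02e-06 and 2.11 ± 0.19, adjusted p = 2.61e-06). The count ratio of Apoa4 to Apoa1 was 0.0273 to 0.0298 in fresh cells, 0.0727 to 0.116 in HM-Wnt at 1 week and 0.335 to 3.01 in MM at 1 week. The highest of these came from the third MM library, in which Apoa1 was low. The minus-strand gene models Gm47528 and Gm10680 share 34.9% and 34.8% of the exon bases of Apoa4, and reads from them cannot be separated.

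Apoa5, a plasma protein that promotes triglyceride breakdown and is made in the liver, had the largest fall of the 10 in each of the 4 comparisons. Fresh libraries held 7709, 2427 and 6176 TPM. HM-Wnt libraries held 27.8, 23.5 and 25.3 TPM at 1 week and 52.0, 37.2 and 146 at 2 weeks. MM libraries held 480, 246 and 300 TPM at 1 week and 570, 980 and 475 at 2 weeks. The fresh libraries spread widely, the second being the lowest, and still lay above every HepOrg library. Apoa5 was 303-fold and 126-fold lower in HM-Wnt (log2 fold change -8.24 ± 0.68, adjusted p = 1.03e-06 and -6.98 ± 0.65, adjusted p = 2.33e-06). In MM the difference was 23.3-fold and 11.1-fold (-4.54 ± 0.58, adjusted p = 4.64e-05 and -3.47 ± 0.55, adjusted p = 0.000284). Fresh cells held 2.55 to 9.08 Apoa5 counts for each Apoa4 count, HM-Wnt HepOrgs at 1 week 0.0085 to 0.0101 and MM HepOrgs at 1 week 0.0353 to 0.0658. The neighbours Apoa4 and Apoa5, whose upstream sequences are printed above, thus moved in opposite directions against fresh cells.

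Apoc3, the inhibitor of lipoprotein lipase, and Apoc1, which slows remnant uptake, fell in all 4 comparisons. Apoc3 was 7136, 7266 and 7776 TPM in fresh cells and 1577 to 5642 TPM over the 12 HepOrg libraries, below the fresh range in all of them. Its log2 fold change was -1.63 ± 0.29 and -2.40 ± 0.30 in HM-Wnt, and -1.11 ± 0.29 and -1.37 ± 0.29 in MM (adjusted p = 0.000476, 2.55e-05, 0.00736 and 0.00217). Apoc1 was 7061, 5820 and 6413 TPM in fresh cells and 1761 to 4334 over the HepOrg libraries, again without overlap. Its log2 fold change was -1.91 ± 0.34 and -2.27 ± 0.34 in HM-Wnt, and -1.47 ± 0.33 and -1.65 ± 0.34 in MM (adjusted p = 0.000481, 0.000124, 0.00347 and 0.00176). Apoc3 lies between Apoa1 and Apoa4, and its count ratio to Apoa4 was 6.29 to 6.92 in fresh cells and 0.428 to 1.17 in HepOrgs. On the TPM scale the Apoc3 fall in MM at 1 week no longer passed the test (-0.53, adjusted p = 0.0548).

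Apoe, the ligand of remnant receptors and the gene with the largest share of counts, fell by a smaller factor. Fresh libraries were almost level at 64777, 65254 and 64179 TPM. HM-Wnt libraries held 38086, 48227 and 36438 TPM at 1 week and 30938, 39447 and 34848 at 2 weeks. MM libraries held 51902, 57279 and 27738 TPM at 1 week and 42708, 43080 and 33899 at 2 weeks, all below fresh cells. The log2 fold change was -1.16 ± 0.35, adjusted p = 0.0150 and -1.70 ± 0.36, adjusted p = 0.00151 in HM-Wnt, and -1.07 ± 0.35, adjusted p = 0.0271 and -1.20 ± 0.36, adjusted p = 0.0160 in MM. The MM call at 1 week was lost when the third MM library was left out (-0.72, adjusted p = 0.0778), when any 1 of the 3 fresh libraries was left out (adjusted p = 0.0515 to 0.0546), on the TPM scale (-0.57, adjusted p = 0.0634) and with only these groups fitted (-1.03, adjusted p = 0.118). The calls were also lost at 2 weeks in MM without the third MM library (-1.01, adjusted p = 0.0717), and at 1 week in HM-Wnt without the first or the third HM-Wnt library (adjusted p = 0.0589 and 0.0609). Macrophages also make Apoe, and fresh cells held some: all 8 immune markers had counts there, with a summed level of 16.6 to 125 TPM. In HepOrgs the sum was 20.7 to 196 TPM, 2 to 6 of the 8 had no count, and Clec4f, which marks Kupffer cells, was at 7.46 to 47.4 TPM in fresh cells and at 0 in all 12 HepOrg libraries. The part of these cells in the Apoe difference was not tested.

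Of Apob and Mttp, the pair needed to build a VLDL particle, Apob fell in all 4 comparisons and Mttp passed the test in HM-Wnt alone. Apob was 95.6, 73.8 and 77.4 TPM in fresh cells. In HM-Wnt it was 59.5, 25.2 and 41.3 at 1 week and 45.6, 46.1 and 52.7 at 2 weeks. In MM it was 44.3, 58.3 and 60.8 at 1 week and 64.7, 58.7 and 65.3 at 2 weeks, and every HepOrg library lay below every fresh one. Its log2 fold change was -1.54 ± 0.21, adjusted p = 5.70e-05 and -1.60 ± 0.21, adjusted p = 3.70e-05 in HM-Wnt, and -1.22 ± 0.21, adjusted p = 0.000436 and -0.90 ± 0.20, adjusted p = 0.00357 in MM. On the TPM scale neither MM value passed (-0.59, adjusted p = 0.0560, and -0.37, adjusted p = 0.221).

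Mttp was 42.4, 48.7 and 41.5 TPM in fresh cells. In HM-Wnt it was 49.5, 26.7 and 46.4 at 1 week and 50.9, 48.8 and 51.2 at 2 weeks. In MM it was 54.6, 55.2 and 91.6 at 1 week and 55.4, 45.7 and 75.1 at 2 weeks. In TPM the HM-Wnt libraries at 2 weeks and the MM libraries at 1 week lay above all fresh ones, the third MM library highest. In the main test Mttp was lower in HM-Wnt (-0.69 ± 0.19, adjusted p = 0.00978, and -0.64 ± 0.19, adjusted p = 0.0131) and did not pass in MM (-0.06 ± 0.19, adjusted p = 0.817, and -0.13 ± 0.19, adjusted p = 0.616). On the log2(TPM + 1) scale the same 4 differences were -0.16, 0.19, 0.55 and 0.38, none of which passed, so the direction for Mttp rests on the scaling in 3 of the 4 comparisons. The HM-Wnt call at 1 week was also lost with only these groups fitted (-0.66, adjusted p = 0.0517), and that at 2 weeks without the second fresh library (-0.50, adjusted p = 0.0618) or the third HM-Wnt library (-0.56, adjusted p = 0.0593).

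Apoh was 271, 174 and 246 TPM in fresh cells and 16.2 to 129 TPM in the 12 HepOrg libraries, all below the fresh range. It fell by 2.27 and 3.25 on the log2 scale in HM-Wnt (SE 0.56 and 0.59, adjusted p = 0.00469 and 0.000494). In MM it fell by 1.71 and 1.81 (SE 0.55 for both, adjusted p = 0.0243 and 0.0192). Both MM calls were lost without the third MM library of that time (-1.32, adjusted p = 0.0906, and -1.50, adjusted p = 0.0806) and without the first fresh library (adjusted p = 0.0626 and 0.0536), and the 1-week call also without the third fresh library (adjusted p = 0.0545).

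**Figure D3:**
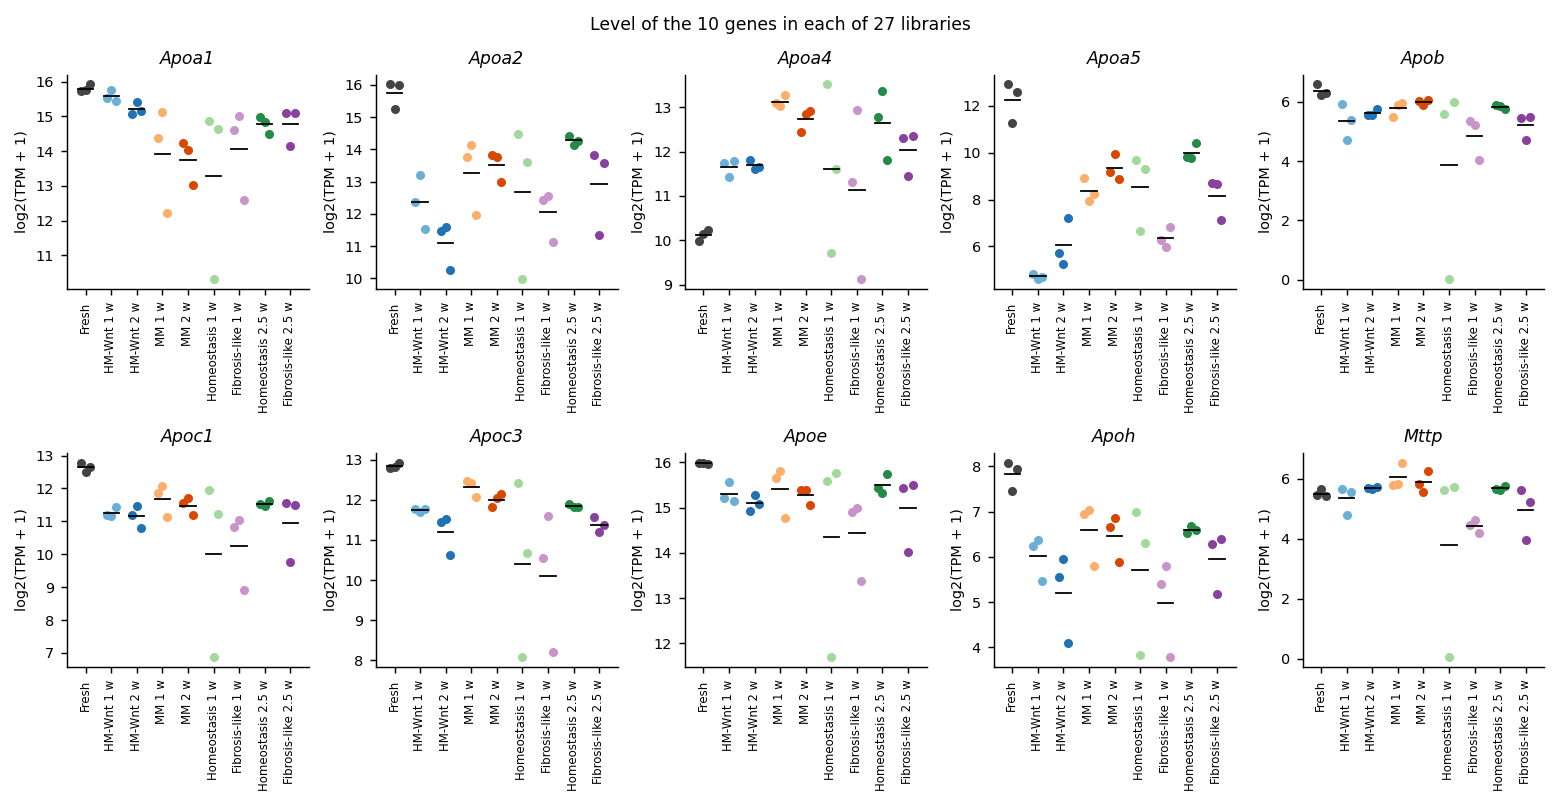
Log2(TPM + 1) of the 10 genes in the 27 libraries, 1 panel per gene; each point is a library and each bar the mean of 3. Apoa5 drops from 2427 or more TPM in fresh cells to 980 TPM or less in all HepOrgs, Apoa4 rises above its fresh level in HepOrgs, and the second homeostasis library at 1 week is the lowest point in 7 panels.

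The direct comparison of the media asked which of the 10 genes differ between HM-Wnt and MM, which lacks the growth factors and the other additives named above. At 1 week Apoa4 and Apoa5 were higher in MM, and the other 8 did not pass. At 2 weeks Apoa2, Apoa4, Apoa5, Apob and Apoc3 were higher and none was lower. Over all 12989 genes tested 2.98% were called at 1 week, of which 1.76% were higher in MM and 1.22% lower. The shares at 2 weeks were 11.5% in all, 6.84% higher and 4.61% lower. The median log2 difference of the 10 genes was 0.53 at 1 week and 0.87 at 2 weeks, against 0.00 and -0.02 over all genes. The replicate numbers paired these libraries, and with the number as a block a further gene passed at each time: Mttp at 1 week (0.62, adjusted p = 0.0463, with 9.48% of all genes called) and Apoh at 2 weeks (1.59, adjusted p = 0.000865, with 19.6%). The blocked counts were therefore 3 and 6 genes.

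Apoa4 was 2.58-fold higher in MM at 1 week and 2.58-fold at 2 weeks (log2 difference 1.37 ± 0.19, adjusted p = 0.00662, and 1.37 ± 0.19, adjusted p = 0.00169). Apoa5 was 12.9-fold and 11.5-fold higher (3.68 ± 0.51, adjusted p = 0.00744, and 3.52 ± 0.51, adjusted p = 0.00243). Neither gene's MM libraries overlapped the HM-Wnt libraries of the same time, as the TPM values above show. At 1 week the Apoa4 call was lost when only these 2 groups were fitted (1.38, adjusted p = 0.0666).

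Apoa2 was 6.27-fold higher in MM at 2 weeks (2.65 ± 0.69, adjusted p = 0.0326), and at 1 week the difference was 0.93 ± 0.66, adjusted p = 0.422. The difference between the 2 times did not pass its own test for Apoa2 (1.72 ± 0.93, adjusted p = 0.673). Apoc3 was 2.06-fold higher at 2 weeks (1.04 ± 0.30, adjusted p = 0.0463) and Apob 1.63-fold (0.71 ± 0.21, adjusted p = 0.0498). These 3 calls rested on all 6 libraries: without any 1 of them the count at 2 weeks was 2 or 3 genes in place of 5. Apoa2 kept its call only without the third MM library, Apoc3 only without the second HM-Wnt library and Apob in none of the 6 cases.

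Apoa1 went the other way. Every MM library lay below every HM-Wnt library of its time in TPM, yet the difference did not pass (-1.28 ± 0.62, adjusted p = 0.245 at 1 week, and -1.04 ± 0.62, adjusted p = 0.304 at 2 weeks). Apoe differed by 0.09 ± 0.37, adjusted p = 0.915 at 1 week and 0.51 ± 0.37, adjusted p = 0.403 at 2 weeks, and Apoc1 by 0.43 ± 0.35 and 0.63 ± 0.35 (adjusted p = 0.488 and 0.262). The Apoe difference at 1 week was below 0 without the third HM-Wnt library (-0.03) and without the first or the second MM library (-0.087 and -0.11). Of the 10 log2 differences 9 were above 0 at each time, on the TPM scale too, and Apoa1 was the exception.

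**Figure D4:**
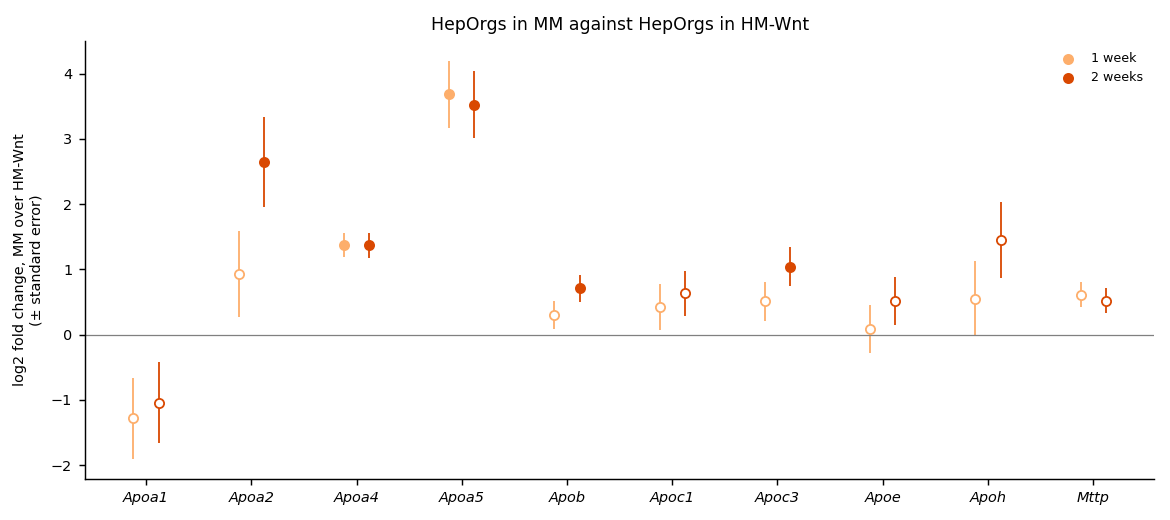
Log2 difference between MM and HM-Wnt HepOrgs with its standard error for each gene, at 1 and 2 weeks; filled points have an adjusted p under 0.05. Apoa5 and Apoa4 are filled and lie above 0 at both times (3.68 and 1.37 at 1 week), and Apoa1 is the only gene below 0 at both.

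Between 1 and 2 weeks none of the 10 genes passed in either medium, and none passed the test of whether the medium difference changed with time. With edgeR the unadjusted p was under 0.05 for 3 of the 10 in HM-Wnt (1134 of 12989 genes), for 1 in MM (1337 genes) and for 0 in the test of the difference (951 genes). The counts of the 10 were 0 as well under DESeq2. Among all 12989 genes, 0% were called in HM-Wnt and 0.0154% in MM. Apoa5 had a log2 difference of 1.26 ± 0.47, adjusted p = 0.556, in HM-Wnt and of 1.10 ± 0.46, adjusted p = 0.431, in MM. Apoa2 in HM-Wnt had -1.63 ± 0.67, adjusted p = 0.556.

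Genes that work with these 10 were read from lists chosen with earlier results of the data known. Against fresh cells 24.8%, 25.7%, 21.3% and 20.0% of all genes tested were called lower, and 24.9%, 26.1%, 21.5% and 19.7% higher. These shares of the main test, HM-Wnt then MM, are the background for the list counts below. Of 15 partners in VLDL assembly and secretion, 6 were lower and 1 higher than in fresh cells in HM-Wnt at 1 week, 8 and 1 at 2 weeks, and 5 and 0 in MM at either time. That balance tipped on the TPM scale, with 5 lower and 4 higher, 3 and 6, 2 and 5, and 2 and 6. Dgat2, which makes triglyceride, changed by -2.45, -2.14, -2.00 and -1.61 (log2, HM-Wnt then MM). Cideb, which helps to lipidate VLDL, changed by -2.57, -2.97, -1.73 and -1.53, and Smlr1 by -2.06, -3.26, -1.42 and -1.25. In MM against HM-Wnt at 2 weeks Smlr1 (2.02) and Cideb (1.45) were among 3 partners that were higher, and Sort1, a sorting receptor, was the only one lower (-1.04).

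In mouse liver Apob mRNA is edited to a shorter form by Apobec1 with the RNA-binding cofactors A1cf and Rbm47. Both cofactors fell against fresh cells in all 4 comparisons: A1cf by 2.54, 2.73, 1.92 and 1.84 on the log2 scale, and Rbm47 by 2.54, 2.67, 1.99 and 2.58. Apobec1 rose by 0.96 in HM-Wnt at 1 week and by 1.08 and 0.87 in MM, and did not pass in HM-Wnt at 2 weeks. A1cf was higher in MM than in HM-Wnt at 2 weeks (0.90). The gene table holds no edited fraction.

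Of 10 tested genes that remodel particles in plasma (12 listed), 4 were lower in each comparison and none or 2 higher. Pon1, an HDL-bound enzyme, changed by -7.88, -9.34, -6.07 and -7.05. Lcat, which Apoa1 activates, changed by -3.22, -3.51, -2.39 and -2.27. Pltp, the phospholipid transfer protein, was higher in MM than in HM-Wnt at both times (2.82 and 1.62). Lpl, the lipase that Apoc3 inhibits and that adult hepatocytes hardly make, was higher in MM at 1 week than in fresh cells (2.14).

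Vldlr, a receptor for Apoe-carrying particles, rose in all 4 comparisons with fresh cells (log2 fold change 2.83 and 3.12 in HM-Wnt, and 2.46 and 2.56 in MM).

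Of 15 transcription factors and coactivators that act on lipoprotein genes, 13, 11, 11 and 9 were lower than in fresh cells and 0, 1, 0 and 0 higher. Their median log2 fold changes were -1.94, -1.80, -1.18 and -0.97. On the TPM scale 9, 7, 4 and 4 of 13 tested were lower and 1, 2, 1 and 0 higher. Nr0b2, the bile acid-induced repressor, changed most (-6.45, -6.80, -3.94 and -2.92), and Cebpa changed by -3.38, -3.02, -3.02 and -2.34. In MM against HM-Wnt 3 were higher at 1 week and 6 at 2 weeks, and none was lower. These included Nr0b2 (2.50 and 3.89), its inducer Nr1h4 at 2 weeks (2.27), and Creb3l3 (0.90 and 1.44), which is known to act on Apoa4 and Apoa5.

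Of 7 other apolipoproteins listed, 4 passed the filter on low counts in the comparisons with fresh cells. Of these 4, 3 were called in HM-Wnt at 1 week, 4 at 2 weeks and 2 in MM at either time. Over all genes tested the shares called were 49.7% and 51.8% in HM-Wnt and 42.8% and 39.7% in MM. Apom, an HDL protein, fell in HM-Wnt at 2 weeks (-1.32) and in MM (-1.57 and -2.43). Clu, also called apolipoprotein J, rose in HM-Wnt (0.72 and 0.65) and in MM (0.67 and 0.65). Apof fell in HM-Wnt (-1.52 and -2.35). Apon fell in HM-Wnt (-2.75 and -3.52) and was higher in MM than in HM-Wnt at 2 weeks (2.34). Apoc2, the activator of lipoprotein lipase and the neighbour of Apoc1, was counted 0 to 2 times per library, with 20 of 27 libraries at 0. The annotated gene Apoc2l shares 41.6% of the exon bases of Apoc2 on the same strand, so its low count cannot be read as low expression.

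In the assembloids the share of counts on the 10 genes varied more between libraries. It was 0.25% to 4.53% in homeostasis assembloids at 1 week and 0.613% to 2.66% in fibrosis-like assembloids at 1 week. At 2.5 weeks it was 3.85% to 4.02% and 1.39% to 3.66%, so that each fibrosis-like library lay below each homeostasis library. The 3 libraries with the lowest shares, the second homeostasis library at 1 week, the third fibrosis-like library at 1 week and the second fibrosis-like library at 2.5 weeks, also had the lowest summed hepatocyte markers (7236, 7249 and 16711 TPM, against 24618 to 68137 in the other 9) and the highest cholangiocyte markers (4338, 4928 and 4121 TPM). Summed mesenchyme markers were 56.6 to 4562 TPM in homeostasis and 1483 to 2929 TPM in fibrosis-like assembloids at 1 week, and 78.9 to 138 TPM against 525 to 2904 TPM at 2.5 weeks. The part of the added cells in the differences below was not tested.

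Fibrosis-like assembloids had lower fitted levels of all 10 genes than homeostasis assembloids at both times, but none passed the test. The median log2 difference was -1.59 at 1 week and -1.01 at 2.5 weeks, against 0.20 and 0.03 over all 14255 genes tested. With edgeR the unadjusted p was under 0.05 for 1 of the 10 at either time (for 2012 and 944 of all genes), and 0% of all genes passed after adjustment. On simulated data with the spread of these libraries, this test found 0.5% of 200 changed genes at 2.5 weeks. The lack of calls therefore decides little about these genes. DESeq2 called 1 of the 10 at 1 week, Apoa5 (-3.78, adjusted p = 0.000689, with 6.08% of all genes called), and 0 at 2.5 weeks. In the same simulation DESeq2 found 24% of the changed genes, with 112 false calls. At 2.5 weeks Apoa2, Apoa5, Apob, Apoc3 and Apoh lay lower without overlap in TPM. The share of all genes that did so was not counted, so this list has no background. On the TPM scale, where the median of all genes sat 0.67 and 0.38 (log2) above the scale of the main test, Apoa1, Apob, Apoc1, Apoe and Mttp were higher in fibrosis-like assembloids at 1 week, by 0.08 to 0.99, and Apoa1 at 2.5 weeks, by 0.01.

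Apoa5 had the largest of these differences. It was 828, 99.4 and 635 TPM in homeostasis and 77.2, 61.4 and 113 TPM in fibrosis-like assembloids at 1 week, overlapping only through the second homeostasis library and the third fibrosis-like library. At 2.5 weeks it was 889, 882 and 1354 TPM against 420, 399 and 137 TPM, without overlap. The log2 difference was -3.74 ± 0.85, adjusted p = 0.271 at 1 week and -2.33 ± 0.80, adjusted p = 0.737 at 2.5 weeks. Within fibrosis-like assembloids Apoa5 was higher at 2.5 weeks than at 1 week in every library (2.46 ± 0.81, adjusted p = 1.00).

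Some of these directions depended on single libraries. Without the first homeostasis library Apoa1 (0.16), Apoa4 (0.46) and Apoc3 (0.31) were above 0, and without the second fibrosis-like library at 2.5 weeks Apoa1 was at 0.0096. Without the second homeostasis library, an alternative added after the data were seen, 2 of the 10 genes were lower in fibrosis-like assembloids at 1 week, Apoa5 (-4.27, adjusted p = 0.0293) and Mttp (-2.28, adjusted p = 0.0480), with 8.01% of all genes called. Mttp was 47.8, 0.0346 and 51.5 TPM in the homeostasis and 20.7, 23.7 and 17.1 TPM in the fibrosis-like libraries at 1 week, and 49.8, 48.1 and 53.4 against 48.7, 14.7 and 36.1 at 2.5 weeks. Apob was 47.3, 0.0162 and 62.5 TPM against 39.4, 35.9 and 15.4 TPM at 1 week and 57.9, 57.4 and 52.9 against 42.5, 25.4 and 43.9 at 2.5 weeks. With voom and sample quality weights, also added afterwards, 6 of the 10 passed at 1 week (Apoa2, Apoa5, Apob, Apoe, Apoh and Mttp, with 17.1% of all genes called) and 1 at 2.5 weeks (Apoa5, -2.27, adjusted p = 0.00558, with 7.70%).

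**Figure D5:**
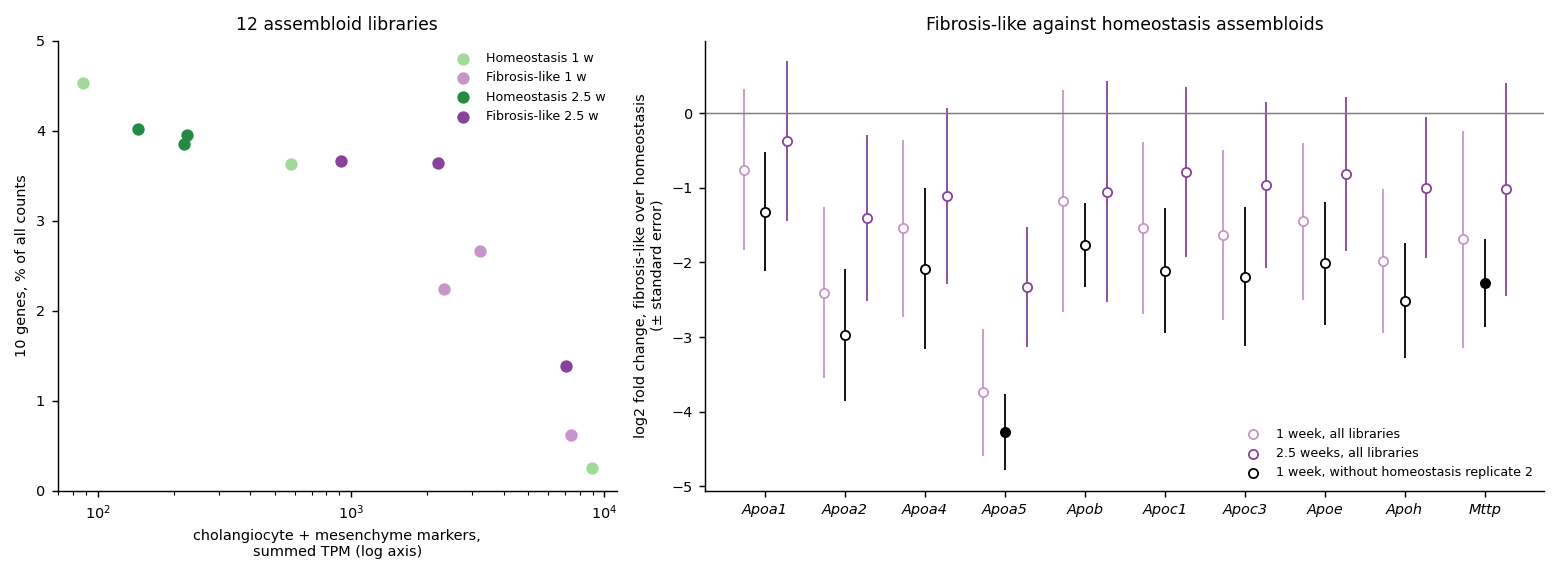
Left, percentage of counts on the 10 genes against the summed TPM of cholangiocyte and mesenchyme markers (log axis) in the assembloid libraries; right, log2 difference between fibrosis-like and homeostasis assembloids with its standard error, at 1 week with all libraries, at 1 week without the second homeostasis library, and at 2.5 weeks. Libraries with the highest marker sums have the lowest shares, and Apoa5 has the lowest value in all 3 fits.

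Against MM HepOrgs, also kept in MM for 1 week, homeostasis assembloids at 1 week passed the test in none of the 10 genes (log2 differences from -0.87 for Mttp to 0.70 for Apoa5, 0 of 10 at an unadjusted p under 0.05 with edgeR, and 0 called by DESeq2). Per the methods of the study, HepOrgs for assembloids were also taken out of Matrigel, hand-picked and aggregated with the added cells. The assembloid labels give no passage. Fibrosis-like assembloids had lower fitted values for all 10 (on the TPM scale for all but Apoa1), with a median of -2.16 against 0.09 over all 13735 genes. In TPM 7 of the 10 lay below MM HepOrgs without overlap (Apoa4, Apoa5, Apob, Apoc1, Apoc3, Apoh and Mttp). How many of all genes lay apart in this way was not counted, so these 7 have no background. None passed in the main test, where 0% of all genes did, while 1 of the 10 had an unadjusted p under 0.05. The fit was also run on simulated data with the spread of these libraries, for homeostasis assembloids against MM HepOrgs. There the main test found 0% of 200 changed genes, and DESeq2 found 16% with 133 false calls. The lack of calls therefore decides little in either comparison. DESeq2 called Apoa5 (-3.09, adjusted p = 0.0209, with 5.33% of all genes called). When the second homeostasis library, which is in neither group but enters the shared estimate of spread, was left out, Apoa5 (-3.04, adjusted p = 0.0111), Mttp (-2.56, adjusted p = 0.0109) and Apob (-1.66, adjusted p = 0.0419) passed, with 22.9% of all genes called. With voom and sample quality weights all but Apoa1 passed, with 54.9% of all genes called. Mttp was 54.6, 55.2 and 91.6 TPM in MM HepOrgs and 20.7, 23.7 and 17.1 in the fibrosis-like libraries, and Apoc3 was 5642, 5506 and 4323 against 1489, 3090 and 293.

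Across time the assembloids gave no calls among the 10 genes, in the assembloid fit that found few of the changed genes on simulated data. The log2 differences between 2.5 weeks and 1 week were all above 0, from 0.29 to 1.05 in homeostasis and from 0.72 to 2.46 in fibrosis-like assembloids, and on the TPM scale too. The median of the 10 was 0.52 and 1.17, against 0.29 and -0.01 over all genes tested. The lowest homeostasis value, that of Apoa4, thus lay at the median of all genes. With edgeR 0 and 1 of the 10 had an unadjusted p under 0.05 (936 and 122 of 14255 genes), DESeq2 called 0 in both, and 0% of all genes passed. Whether the effect of the cell ratio changed with time was tested directly, and 0 of the 10 passed or had an unadjusted p under 0.05 (278 of all genes did; DESeq2 called 0 of the 10).

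Over the means of the 9 conditions the 10 genes did not follow one pattern. Pearson's r between pairs of them (log2 CPM, 9 means that share libraries and depth, given as a description) ran from -0.08 for Apoa1 and Apoa4, which lie in 1 cluster, to 0.99 for the neighbours Apoc1 and Apoe. Apob and Mttp had r = 0.97. The second homeostasis library at 1 week, with 3 and 9 counts of these genes, enters 1 of the 9 means behind every r given here. No r was computed without it. By mean TPM Apob was highest in fresh cells (82.3) and Mttp in MM at 1 week (67.1). Apoa4 had r = 0.17 with Apoa5 and 0.19 with Apoa2. Among 3511 other genes with a mean of at least 5 on that scale, those most like the mean of the 10 were Slc27a2 (r = 0.991), Tmem205 (0.989), Hgd (0.984), Mpc2 (0.984) and Ephx2 (0.980). The genes most like Apoa4 were Cpb2 (0.964), Gbe1 (0.956), Tifa (0.943), Hp (0.938) and Orm1 (0.935), and those most like Apoa5 were Acat1 (0.984) and Bckdha (0.980).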

How the data were processed

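Bulk RNA-seq of 27 libraries in 9 conditions (3 each) was used, and another 10 libraries of the table were not used here. Per the labels and the methods of the study, libraries were made by SMARTseq2 without strand, aligned with STAR to mouse GRCm39 and counted per gene with featureCounts. The deposited counts are raw. TPM values, as deposited, rest on a length column that lies within 5% of the gene's genomic span for 80.8% of genes, so TPM was compared only within a gene and levels between genes were set per kilobase of canonical transcript. Columns of the authors' comparisons (fold changes and p-values) were not used. In all, 79 rows without a gene name were left out of names.

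Counts were tested with edgeR 4.0.16 in R 4.3.3 (quasi-likelihood test, TMM, filterByExpr with a minimum count of 10 and total of 15, Benjamini-Hochberg over all genes tested, threshold 0.05), with 1 mean per condition and no covariate. Comparisons with fresh hepatocytes were fitted on 15 libraries, those between media on 12, those between assembloids on 12 and those between assembloids and MM HepOrgs on 9. Alternatives were RLE size factors, DESeq2 1.42.0, no filter, limma 3.58.1 on log2(TPM + 1) or log2(TPM + 0.1) for genes of at least 1 TPM in 3 libraries, only the groups compared, the replicate number as a block, and each library left out. Replicate numbers were taken to pair the HepOrg libraries, since deviations from group means correlated above 0.1 in 18 of 18 same-number pairs (0.127 to 0.503) and in 2 of 36 others. In the other fits this held for 19 of 30, 6 of 18 and 2 of 9 pairs. The 10 genes and all lists were chosen with earlier results of these data known. All 10 genes are named in each comparison, and of other lists the counts and up to 3 genes with the largest change among those called. Some genes of the list of receptors and uptake genes, and the counts of that list, are not reported here. The scripts were tested on simulated data, in which 200 genes were changed by 2 on the log2 scale. With the spread estimated over all libraries of each fit, the main test found 73.5% of them in MM at 1 week against fresh cells. It found 77% in MM against HM-Wnt at 1 week. Between assembloids at 2.5 weeks it found 0.5%, and between homeostasis assembloids and MM HepOrgs 0%. Counting error is small at 30289364 counts or more, except for genes with few counts, such as Apob (3) and Mttp (9) in the second homeostasis library at 1 week. Elsewhere the spread between libraries sets the errors given.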

Additional observations from a re-analysis of the deposited data

How the results depend on the processing

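Over 9 comparisons, 1220 estimates of the 10 genes were recomputed under alternatives. Of these 1107 kept their direction and their side of the threshold, 49 lost a call, 34 gained one and 30 changed sign. In the other 7 comparisons, which gave no calls, 101 of 1060 changed sign and 0 were called. The cause was not tested in any case.

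In MM against HM-Wnt at 1 week the count was 1 when only these groups were fitted. At 2 weeks it was 3 without the filter on low counts and 2 to 3 with any 1 of the 6 libraries left out, against 5 in the main test. In fibrosis-like against homeostasis assembloids at 1 week DESeq2 gave a count of 1 (6.08% of all genes called) and voom with sample quality weights 6 (17.1%). With 1 library left out the count was 0 to 2, the 2 being without the second homeostasis library (8.01% of all genes). At 2.5 weeks it was 1 when only these groups were fitted and 1 with voom (7.70% of all genes). Fibrosis-like assembloids against MM HepOrgs gave 1 with DESeq2 (5.33% of all genes), 2 with only these groups fitted and 9 with voom (54.9%). With 1 library left out the count was 0 to 3, the 3 being without the second homeostasis library (22.9% of all genes). For the alternatives without a share beside them, the share of all genes called is not given here, so their counts have no background.

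On the TPM scale, with a pseudocount of 1 or 0.1, these signs changed. Mttp against fresh cells was 0.185 or 0.189 in HM-Wnt at 2 weeks, 0.552 or 0.561 in MM at 1 week and 0.376 or 0.382 at 2 weeks. In fibrosis-like against homeostasis assembloids at 1 week Apoa1 was 0.788 or 0.789, Apob 0.992 or 2.00, Apoc1 0.250 or 0.253, Apoe 0.0795 or 0.0795, and Mttp 0.623 or 1.56, and at 2.5 weeks Apoa1 was 0.0134 or 0.0134. Against MM HepOrgs Apoa1 was 0.154 or 0.154 in fibrosis-like assembloids.

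With 1 library left out, ranges that crossed 0 were as follows. Mttp against fresh cells was -0.160 to 0.0676 in MM at 1 week and -0.231 to 0.0186 at 2 weeks, and Apoe in MM against HM-Wnt at 1 week was -0.112 to 0.419. In fibrosis-like against homeostasis assembloids at 1 week Apoa1 was -1.32 to 0.160, Apoa4 -2.84 to 0.465 and Apoc3 -2.55 to 0.310, all above 0 only without the first homeostasis library. At 2.5 weeks Apoa1 was -0.616 to 0.00965, above 0 only without the second fibrosis-like library.

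The replicate block changed 1 further call among these genes: against fresh cells in HM-Wnt at 2 weeks Apoa1 passed (-1.46, adjusted p = 0.0273), as it did with DESeq2 (-1.40, adjusted p = 0.0208). The assembloid counts stayed at 0 under the block, although there same-number libraries did not deviate together. Depth does not limit these comparisons as much as the spread between the 3 libraries of an assembloid condition does.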

Other observations

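The order of the 10 genes by RPKM over the canonical transcript (mean ± SD, n = 3) differed between conditions. In fresh hepatocytes Apoa2 (22630 ± 5920) led Apoe (14296 ± 435) and Apoa1 (11425 ± 1111), and Apoa4 was at 265 ± 29.8. In HM-Wnt at 2 weeks Apoe (6487 ± 860) and Apoa1 (6400 ± 874) were close together, and Apoa2 (804 ± 348) was near Apoc1 (685 ± 171) and Apoa4 (659 ± 48.6). In MM at 2 weeks Apoe (7988 ± 964) led Apoa2 (4394 ± 1242), Apoa1 (2649 ± 996) and Apoa4 (1488 ± 277). Apoa5 went from 1028 ± 496 in fresh cells to 4.29 ± 0.193 in HM-Wnt at 1 week, the lowest mean of the 10 there.

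The count ratio of Apoa1 to Apoa2 also set the assembloids apart. It was 1.80 to 2.95 in homeostasis and 3.88 to 7.76 in fibrosis-like assembloids at 1 week, the second homeostasis library included, and 1.66 to 2.30 against 3.42 to 9.85 at 2.5 weeks. At 1 week it was 1.72 to 2.88 in MM HepOrgs and 8.51 to 21.4 in HM-Wnt HepOrgs. This ratio was singled out after its values were seen and was not tested.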
